A study of Mus musculus with 6 samples.

Results

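The corticotropin-releasing hormone (CRH) family was followed in mouse mammary cells through 8 genes: the receptors Crhr1 and Crhr2, the peptides Crh, Ucn, Ucn2 and Ucn3, the binding protein Crhbp, and Pomc, the hormone precursor that CRH controls in the pituitary. These genes were selected on the comparison of Lgr5-positive with Lgr5-negative cells itself, because Crhr1 had passed its threshold there. They are 8 of the 20887 gene symbols named on the array, and 9 of its 55681 probes read them. In Lgr5-positive cells the bright Crhr1 probe was 1.31 log2 units higher than in Lgr5-negative cells, while Pomc was 0.66 and Crh 0.68 log2 units lower. Crhr2 differed by 0.02. Ucn, Ucn2 and Crhbp lay near the limit of detection in both fractions, and Ucn3 was dim but seen on most arrays. The members' differences between the groups are a description. The only p-values given for them are the limma adjusted p that chose Crhr1 and its values under other settings. That Crhr1 and Pomc passed the blocked fit is stated, and nothing is read from it.

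CRH is the hypothalamic peptide that starts the stress response. It binds CRHR1 on pituitary corticotrophs, a receptor coupled to the stimulatory G protein Gs, and the resulting cyclic AMP raises Pomc transcription and the release of adrenocorticotropin, which drives glucocorticoid synthesis in the adrenal gland. Urocortin, the product of Ucn, binds both receptors, whereas urocortin 2 and urocortin 3 prefer CRHR2, and CRHBP binds CRH and urocortin and limits their access to the receptors. Outside the brain and pituitary, the same peptides act locally in tissues such as skin.

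The cells were isolated from the mammary glands of virgin mice of strain C57/B6 with the genotype lgr5-egfp-ires-creert2, which puts EGFP and an inducible Cre under control of the Lgr5 locus and was carried by both groups. From the Lin-CD24+CD29hi gate, called P4 and enriched in basal mammary cells, GFP+ cells were taken as Lgr5-positive and GFP- cells as Lgr5-negative, with 3 arrays per group. The labels give neither the age of the mice, nor the number pooled per sample, nor the markers behind Lin, and p-values measure only the spread between these samples. On each array the sorted cells' RNA carried Cy5 and a universal mouse reference RNA, mixed from 11 cell lines, carried Cy3, so each value is a log2 ratio of sorted cells over the reference. A drop in the ratio can come from fewer cells of a type or from less RNA per cell, which cannot be told apart in sorted bulk RNA.

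Lgr5 itself, which checks the labels, had a log2 ratio of 4.87 ± 0.57 (SD, n = 3) in Lgr5-positive and 3.40 ± 0.61 (SD, n = 3) in Lgr5-negative cells, with no overlap. Its difference of 1.47 had a limma adjusted p of 0.245 with the group alone and of 0.0021 with the replicate number as a block. The gate was checked with 11 basal markers, such as keratins and smooth muscle genes. They include Itgb1, the gene of CD29, which is no separate check because the gate selected on CD29. All 11 were well above background on each of the 6 arrays. Their mean log2 ratio was 3.24 to 3.48 in Lgr5-positive and 2.83 to 3.08 in Lgr5-negative cells. All 11 luminal markers were also well above background on each array, at a mean of 0.61 to 1.02 and 1.01 to 1.44. The 11 endothelial markers averaged 1.23 to 2.27 in Lgr5-positive and 3.10 to 3.73 in Lgr5-negative cells, so the groups did not overlap. Median Cy5 signal was 137 to 169 on the Lgr5-positive and 200 to 278 on the Lgr5-negative arrays, over a background of 64 to 76. The brighter Crhr1 spots in Lgr5-positive cells thus ran against the overall brightness of the arrays, and the dimmer Crh and Pomc spots ran with it; the part of brightness in these results was not tested.

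The promoters of both receptors and of Pomc are shown because these 3 genes carry the contrast between a receptor that was higher, a receptor that was level and a target that was lower. Each runs from 250 bases before to 50 after the start, from RefSeq on GRCm38.p6. Crhr1 lies at chr11:104132531-104132830 on the plus strand, at a start 2318 bases inside the annotated gene, Crhr2 at chr6:55132967-55133266 on the minus strand and Pomc at chr12:3954695-3954994 on the plus strand. Capitals mark the TATA box letters TATAAA on the gene's strand and the GC box letters GGGCGG, or CCGCCC where the box is on the other strand.
Crhr1: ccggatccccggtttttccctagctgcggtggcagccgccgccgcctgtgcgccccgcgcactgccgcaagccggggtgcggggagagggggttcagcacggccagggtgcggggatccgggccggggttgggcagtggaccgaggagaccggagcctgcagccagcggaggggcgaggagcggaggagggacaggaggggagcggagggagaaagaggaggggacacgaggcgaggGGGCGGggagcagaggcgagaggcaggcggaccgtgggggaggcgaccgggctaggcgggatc
Crhr2: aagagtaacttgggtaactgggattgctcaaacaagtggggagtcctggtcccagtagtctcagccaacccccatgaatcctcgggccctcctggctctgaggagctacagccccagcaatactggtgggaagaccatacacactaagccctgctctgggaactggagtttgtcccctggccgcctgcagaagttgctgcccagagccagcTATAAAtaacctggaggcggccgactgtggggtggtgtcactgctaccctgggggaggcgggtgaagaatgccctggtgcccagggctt
Pomc: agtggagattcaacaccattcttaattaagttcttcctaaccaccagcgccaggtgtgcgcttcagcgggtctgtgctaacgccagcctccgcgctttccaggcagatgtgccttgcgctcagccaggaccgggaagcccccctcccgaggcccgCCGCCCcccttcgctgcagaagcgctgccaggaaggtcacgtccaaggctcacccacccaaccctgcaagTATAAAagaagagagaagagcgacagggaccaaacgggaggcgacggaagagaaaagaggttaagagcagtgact

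The Crhr1 window was 75% G and C and held 1 GC box and no TATAAA. Crhr2, at 59%, held 1 TATAAA, and Pomc, also at 59%, held 1 TATAAA and 1 GC box. The cyclic AMP response element TGACGTCA, which reads alike on both strands and is bound by the factor CREB, was in none of these 3 windows. Among the 32851 promoter windows of the same length, 35.7% held the GC box, 8.32% TATAAA and 1.79% TGACGTCA, and the median G and C content was 52.7%. Of the other members, Ucn held 1 TGACGTCA, Crhbp held 1 TATAAA and Ucn3 held none of the 3 motifs. Crh and Ucn2 had no entry. A match describes the letters in the window and shows no binding.

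Crhr1 is the CRH receptor of pituitary corticotrophs and the member with the brightest Cy5 signal. The log2 ratio of its bright probe was 1.96, 2.32 and 1.90 in Lgr5-positive replicates 1 to 3 and 0.58, 0.91 and 0.74 in Lgr5-negative replicates 1 to 3. The lowest Lgr5-positive array thus lay above the highest Lgr5-negative one, and the probe was well above background on all 6 arrays. The spots themselves read 565, 902 and 686 in Cy5 in Lgr5-positive cells, against 353, 478 and 516 in Lgr5-negative cells. The Cy3 signal of the reference on the same spots was also higher on the Lgr5-positive arrays, at 282, 282 and 290 against 247, 223 and 243. Before normalization, with the local background subtracted, the gap was 0.79 log2 units in Cy5, 0.30 in Cy3 and 0.49 in their ratio. The normalized gap of 1.31 is larger, and its size depended on the normalization. It was 0.81 with median centring in place of loess, and 1.40 in the Cy5 channel alone after quantile normalization, without loess. The raw ratio gap of Crhr2 was -0.63, that of Pomc -1.77 and that of Crh -1.61.

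The group means of the bright Crhr1 probe were 2.06 ± 0.23 and 0.74 ± 0.16 (SD, n = 3 each), a difference of 1.31 (SE 0.19), which is 2.49-fold. Taken by replicate number, the difference was 1.37, 1.42 and 1.15, of like size in the 3 pairs. The value that chose Crhr1 was its limma adjusted p of 0.0482, which lay just inside the threshold of 0.05. With the group alone, 0.0255% of the 15680 genes tested passed as higher and 0.587% as lower, and 1 of the 4 members tested, Crhr1, was among the higher. Nothing is read from that count, since it chose the member.

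**Figure D1:**
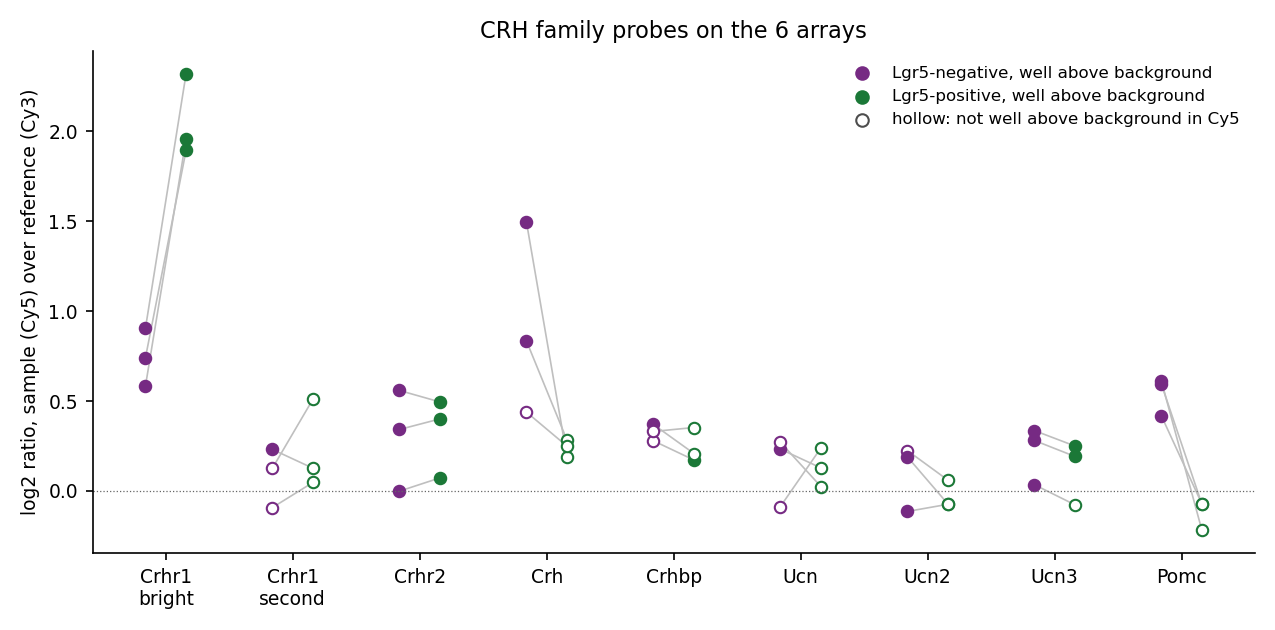
Log2 ratio of sorted cells over the reference RNA for the 9 probes of the CRH family, 1 point per array, with lines joining arrays of the same replicate number; filled points are well above background in Cy5 and open points are not, with Pomc in Lgr5-positive replicates 1 (filled) and 2 (open) drawn at one height. The bright Crhr1 probe is higher and Pomc and Crh are lower on all 3 Lgr5-positive arrays, and the groups overlap for the other 6 probes.

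A second Crhr1 probe, annotated with the same transcript, was dim. Its log2 ratios were 0.05, 0.13 and 0.51 in Lgr5-positive and -0.09, 0.23 and 0.13 in Lgr5-negative cells, and it was well above background on 1 array, Lgr5-negative replicate 2. The groups overlapped, and the difference of 0.14 had a 95% interval of -0.29 to 0.57 that excludes the 1.31 of the bright probe. Before normalization the ratio gap of the second probe was -0.36, and by the scanner's own log ratio its difference was -0.14. Near background a ratio is pulled towards 0, so the second probe gives no size for Crhr1. Where on the transcript either probe lies was not analysed here. In the GRCm38.p6 annotation Crhr1 also overlaps the long noncoding RNA Gm35469, and whether a probe reads it was not tested.

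The Crhr1 difference was 0.81 to 1.47 over the alternative settings that kept all arrays. The lowest, 0.81, came from median centring in place of loess, which also moved the median of all genes from 0.01 to -0.29. Aquantile normalization after loess leaves the ratios as they are and so repeats the first value. Leaving out any 1 array or pair gave 1.18 to 1.40. The limma adjusted p that chose Crhr1 was under 0.05 in 7 of the 13 alternatives that kept all arrays. It was 0.2 under median centring, 0.163 with trend and robust moderation and 0.0529 without background subtraction. It was 0.048 without Lgr5-negative replicate 1 and 0.109 to 0.537 without any other array or pair. The choice of this gene thus depended on the processing and on the set of arrays.

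**Figure D2:**
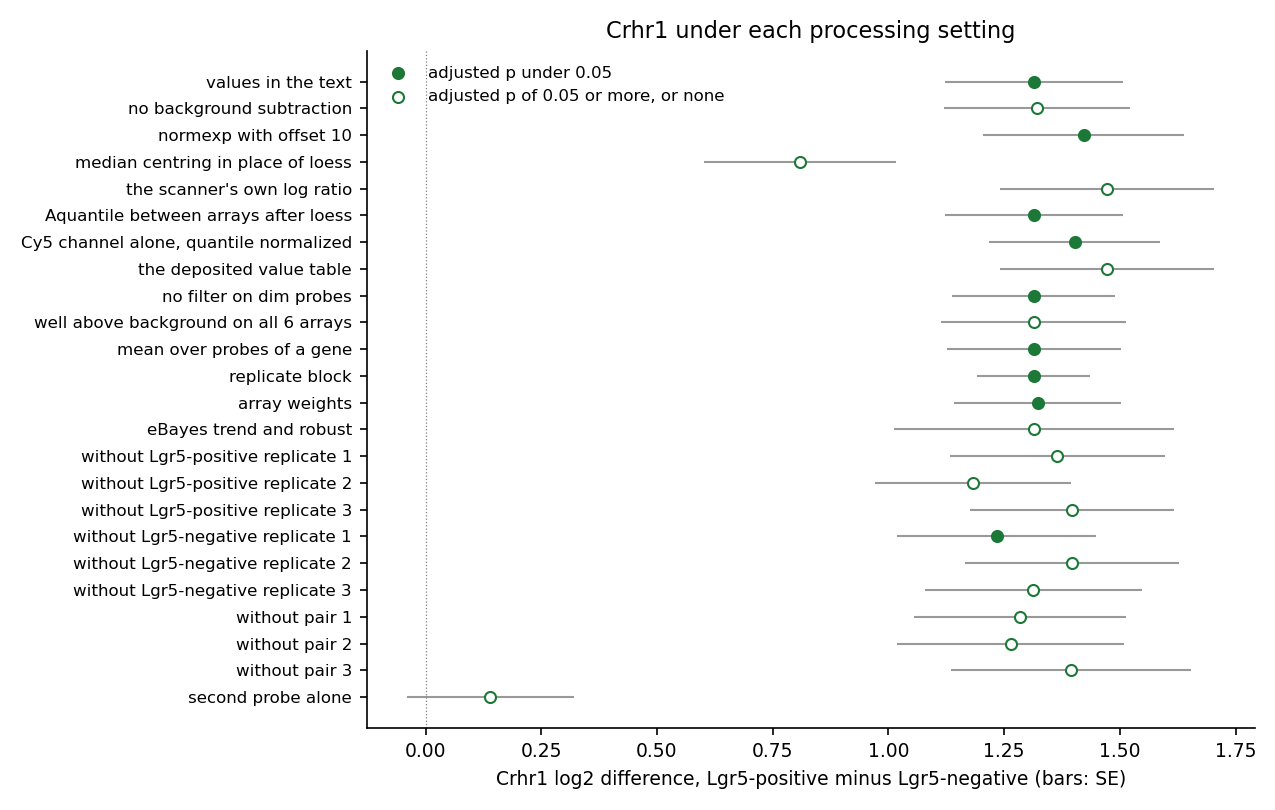
Difference of the bright Crhr1 probe between Lgr5-positive and Lgr5-negative cells, in log2 units with its SE, under each processing setting. The row for the second probe alone shows the other probe, at 0.14. Filled points have a limma adjusted p under 0.05, the value that chose the gene. All differences of the bright probe are positive, from 0.81 to 1.47, whereas the adjusted p moves across the threshold.

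Crhr2, the receptor that urocortin 2 and urocortin 3 prefer, had nearly equal mean ratios in both fractions. Its log2 ratios were 0.50, 0.40 and 0.07 in Lgr5-positive and 0.56, 0.34 and 0.00 in Lgr5-negative cells, with the probe well above background on all 6 arrays. The values fell in the same order in the 2 groups, lowest in replicate 3, so the spread followed the replicate number rather than the fraction. The means were 0.32 ± 0.22 and 0.30 ± 0.28 (SD, n = 3 each), and the difference of 0.02 had a 95% interval of -0.46 to 0.50. Its Cy5 signal alone was lower in Lgr5-positive cells, at 168 to 208 against 241 to 321. After normalization the ratios overlapped, and the interval leaves room for a change of up to about 0.50 in either direction but not for one the size of Crhr1's.

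Crh, the hypothalamic releasing hormone, was seen in the Lgr5-negative fraction and not in the Lgr5-positive one. Its Cy5 spots read 82, 94.5 and 106 in Lgr5-positive cells, never well above background, and 273, 190 and 172.5 in Lgr5-negative cells, well above background in replicates 1 and 2. The log2 ratios were 0.19, 0.28 and 0.25 in Lgr5-positive and 1.497, 0.84 and 0.44 in Lgr5-negative cells. The groups did not overlap, but Lgr5-negative replicate 1 carried much of the gap. By replicate number the difference was -1.31, -0.55 and -0.19, with a mean of -0.68 and a 95% interval of -1.32 to -0.05. Without Lgr5-negative replicate 1 it was -0.40.

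No least fold is given for Crh, Ucn or Ucn2, because for each the bound from the Cy5 channel exceeded the fold of the ratio itself. Crh did not pass the filter on dim probes, which asked for a Cy5 signal the scanner rated well above background on 3 or more arrays, and so has no place in the fit. Crh also overlaps a long noncoding RNA, Gm42189, in the annotation. Whether its probe reads that transcript was not tested.

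**Figure D3:**
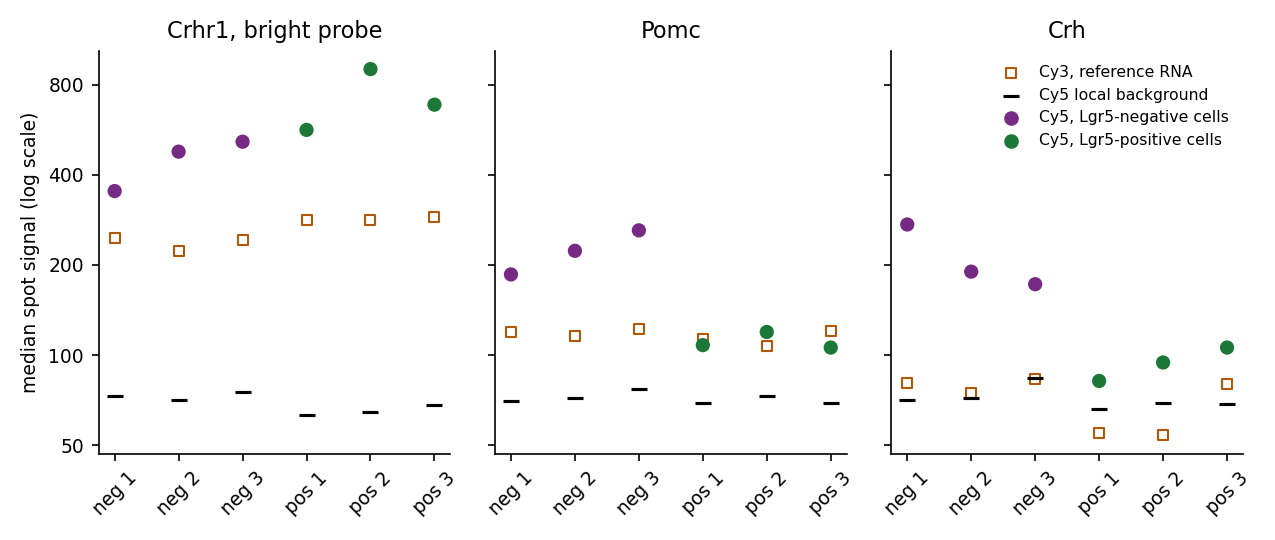
Median spot signal on a log scale for the bright Crhr1 probe, Pomc and Crh, 1 column per array: filled circles are Cy5 from the sorted cells, squares are Cy3 from the reference RNA and dashes are the local Cy5 background. For Crhr1 the Cy5 circles are highest in Lgr5-positive cells (565 to 902), and for Pomc and Crh they come down towards the background of 66 to 73 there.

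Ucn and Ucn2 showed little signal in either fraction. Ucn, which activates both receptors, had log2 ratios of 0.24, 0.13 and 0.02 in Lgr5-positive and -0.09, 0.23 and 0.27 in Lgr5-negative cells and was well above background on Lgr5-negative replicate 2 alone. Its groups overlapped, with a difference of -0.01 (95% interval -0.38 to 0.37). Ucn2, a ligand of CRHR2, had log2 ratios of 0.06, -0.07 and -0.07 in Lgr5-positive and 0.23, -0.11 and 0.19 in Lgr5-negative cells, with a difference of -0.13 (95% interval -0.49 to 0.23). It was well above background on 2 Lgr5-negative arrays and on no Lgr5-positive one. On one of them, replicate 3, the spot was bright in both channels, at 366.5 in Cy5 and 234 in Cy3, over a raised local background of 144.

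Ucn3, also a ligand of CRHR2, was the urocortin seen most often, well above background on 2 Lgr5-positive and 3 Lgr5-negative arrays. Its log2 ratios were 0.19, -0.08 and 0.25 in Lgr5-positive and 0.28, 0.04 and 0.34 in Lgr5-negative cells. Replicate 2 was the lowest in both groups, and the ranges overlapped. The difference by replicate number was -0.09, -0.11 and -0.09, with a mean of -0.10 and a 95% interval of -0.48 to 0.29.

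Crhbp, the secreted protein that sequesters CRH and urocortin, was well above background on 1 array of each group. Its log2 ratios were 0.17, 0.21 and 0.35 in Lgr5-positive and 0.28, 0.37 and 0.33 in Lgr5-negative cells, and the difference of -0.08 had a 95% interval of -0.40 to 0.23. The groups overlapped. For probes this dim the interval covers the spread of the ratios, not the compression near background, and a difference in the RNA may not have been detectable.

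Pomc, the precursor of adrenocorticotropin, melanocortins and beta-endorphin, was lower in Lgr5-positive cells. Its log2 ratios were -0.07, -0.07 and -0.22 in Lgr5-positive and 0.42, 0.60 and 0.61 in Lgr5-negative cells. The groups did not overlap: every Lgr5-positive value lay below 0 and every Lgr5-negative value above it. In Cy5 the spots read 108, 119.5 and 106 against 186, 223 and 261, while the reference in Cy3 stayed between 107 and 122. Pomc was well above background on 1 Lgr5-positive array, replicate 1, and on all 3 Lgr5-negative ones, so it passed the filter mainly through the group where it is high.

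The group means of Pomc were -0.12 ± 0.08 and 0.54 ± 0.11 (SD, n = 3 each), a difference of -0.66 (SE 0.16), with -0.49, -0.67 and -0.83 by replicate number. With the replicate number as a block 2.1% of all genes passed as higher and 5.61% as lower, and Crhr1 and Pomc were the members among them, 1 in each direction. As these members were chosen on this contrast, nothing is read from the count. The size depends on how background is handled: the scanner's own log ratio gave -1.51 for Pomc and -1.81 for Crh.

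Over the 9 probes, 10 of 27 readings in Lgr5-positive cells and 19 of 27 in Lgr5-negative cells were well above background. Over all probes of the array the share was 67.3%, 58.0% and 50.9% in Lgr5-positive replicates 1 to 3 and 56.3%, 74.4% and 58.7% in Lgr5-negative ones. Of the probes, 2 were so on all 6 arrays (the bright Crhr1 probe and Crhr2), 2 on 3 to 5 arrays (Ucn3 and Pomc) and 5 on 1 or 2 arrays. The groups did not overlap for 3 of the 9 probes, namely the bright Crhr1 probe, Crh and Pomc. Among all named probes 11.3% had no overlap, and again nothing is read from the members' share. Members that passed the filter numbered 4 of 8: Crhr1, Crhr2, Ucn3 and Pomc.

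Each array also compares the sorted cells with the reference RNA, a comparison that did not choose the members. Averaged over both groups, Crhr1 was above the mixed cell lines by 1.40 log2 units (SE 0.096, limma adjusted p = 2.9e-05), and it was above them on 6 of 6 arrays. Crhr2 was 0.31 above (SE 0.11, adjusted p = 0.0386), but not with same-numbered arrays averaged first (0.15), under median centring (0.0545), without pair 1 or 2, or without 1 of 4 single arrays, Lgr5-positive or Lgr5-negative replicate 1 or 2 (0.0973 to 0.2). Pomc at 0.21 (adjusted p = 0.0513) and Ucn3 at 0.17 (0.138) did not pass. Pomc passed in 6 alternatives, among them offset 10 (0.0406), median centring (0.0173) and array weights (0.0202), and had 0.21 with same-numbered arrays averaged first. Thus 2 of the 4 members tested were higher than the reference and 0 lower, where 30.1% of all genes were higher and 35.2% lower (4723 and 5514 genes). Under median centring that split was 2863 higher and 7767 lower. Dyes were not swapped, so a dye effect is part of every such value.

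Downstream and neighbouring parts of the pathway were read from 6 lists that name 117 genes besides the members, 87 of which were tested. With the group alone 0 of the 87 passed by limma in either direction, beside 0.0255% higher and 0.587% lower over all genes; at an unadjusted p under 0.05, 13 (14.9%) were lower and 0 higher, beside 6.23% and 1.96% over all genes. With the replicate block 12 (13.8%) were lower and 1 (1.15%) higher, beside 5.61% and 2.1% over all genes. The median difference over the 87 genes was 0.03, and 49 had a positive sign, so most of the pathway lay near 0 and a few genes lay far below it. Leaving out pair 1, 2 or 3 from the blocked fit gave 16, 4 and 10 lower and 0 higher. Over all genes tested, the same fits gave 1082, 289 and 714 lower and 316, 37 and 140 higher.

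The list of class B1 receptors, the family of peptide hormone receptors to which Crhr1 belongs, also holds the accessory protein genes Ramp1, Ramp2 and Ramp3. Of its 16 genes 10 were tested, and their median difference was -0.14. With the block 2 were lower, the accessory protein gene Ramp2 and the receptor gene Vipr1, and 0 higher. Ramp2, which partners the receptor Calcrl to form the adrenomedullin receptor of vessels, was at 2.82 ± 0.78 in Lgr5-positive and 5.28 ± 0.16 in Lgr5-negative cells, a difference of -2.46 (limma adjusted p = 0.056, blocked 0.0061). The receptor for vasoactive intestinal peptide Vipr1 differed by -0.81 (blocked 0.018), although its second probe, well above background on all 6 arrays, differed by -0.05. The glucagon receptor Gcgr differed by -0.41 and did not pass (blocked 0.090). No array showed Gipr, Pth2r or Calcr well above background.

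Of 23 listed genes for Gs, adenylyl cyclases and protein kinase A, through which CRH receptors signal, 18 were tested, and with the block 4 were lower and 1 higher. The median was -0.02, and -0.49 under median centring, where that of all genes was -0.29. The Gs alpha subunit Gnas differed by -0.03 and the catalytic kinase subunit Prkaca by 0.06. The 4 that were lower were the cyclases Adcy4, by -2.27 (adjusted p = 0.0025), and Adcy5, by -2.10 (0.0055), the cyclic AMP-gated exchange factor Rapgef3, by -1.12 (0.015), and the kinase anchor Akap12, by -1.05 (0.027). The other probes of Adcy5 differed by -0.59 and -0.60, and a dim second Akap12 probe by -0.38. The 1 gene higher with the block was the kinase regulatory subunit Prkar1b, by 0.65, which was named after its value was seen.

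Receptor desensitization and cyclic AMP breakdown, through arrestins, receptor kinases, RGS proteins and phosphodiesterases, had 18 of 21 genes tested and a median of 0.02. Rgs16, which speeds the shut-off of G proteins, differed by -1.45 (limma adjusted p = 0.097, blocked 0.0097), and the related Rgs4 by -0.94, which did not pass (blocked 0.063). For the CREB factors and genes that cyclic AMP induces, 15 of 19 were tested and the median was 0.05. Of the 15, 12 had a positive difference, the largest being that of Fosb at 0.45. Areg, an EGF receptor ligand of the mammary gland, differed by -2.25 (adjusted p = 0.113, blocked 0.0021). Creb1 itself differed by -0.73 and did not pass (blocked 0.090), with a second probe at -0.13, and the early-response receptor gene Nr4a1 by -0.10.

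The genes that process POMC or carry its peptides' signal had 13 of 22 listed members tested, with a median of 0.06. Carboxypeptidase E, Cpe, which trims prohormone fragments, was lower by every one of its 3 probes, at -2.61, -2.22 and -1.05 (limma adjusted p of the brightest 0.085, blocked 7.7e-04). Its log2 ratio by group was -2.63 ± 0.59 in Lgr5-positive and -0.02 ± 0.84 in Lgr5-negative cells, so it reached the level of the reference mix in the latter alone. Penk, the precursor of enkephalins, differed by -2.02 (adjusted p = 0.121, blocked 0.0086). Of the 22 listed genes 21 had a named probe. The adrenocorticotropin receptor Mc2r, its accessory protein Mrap, Asip, Oprk1 and Pdyn were not seen well above background on any array. These include the gene without a probe.

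At the end of the axis, 13 of 16 genes for glucocorticoid receptors, steroid handling and targets were tested, with a median of -0.04. The glucocorticoid receptor Nr3c1 differed by -0.16. Of its familiar targets Tsc22d3 differed by -0.97 (limma adjusted p = 0.081, blocked 0.0055) and the chaperone Fkbp5 by -1.27 (0.243, blocked 0.034). Both were lower on all 3 Lgr5-positive arrays with no overlap. Other genes of the list went both ways, with Sgk1 at 0.35, Zbtb16 at 0.14, Per2 at -0.04 and Dusp4 at -0.42. Of the 13 tested, 6 had a positive difference.

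**Figure D4:**
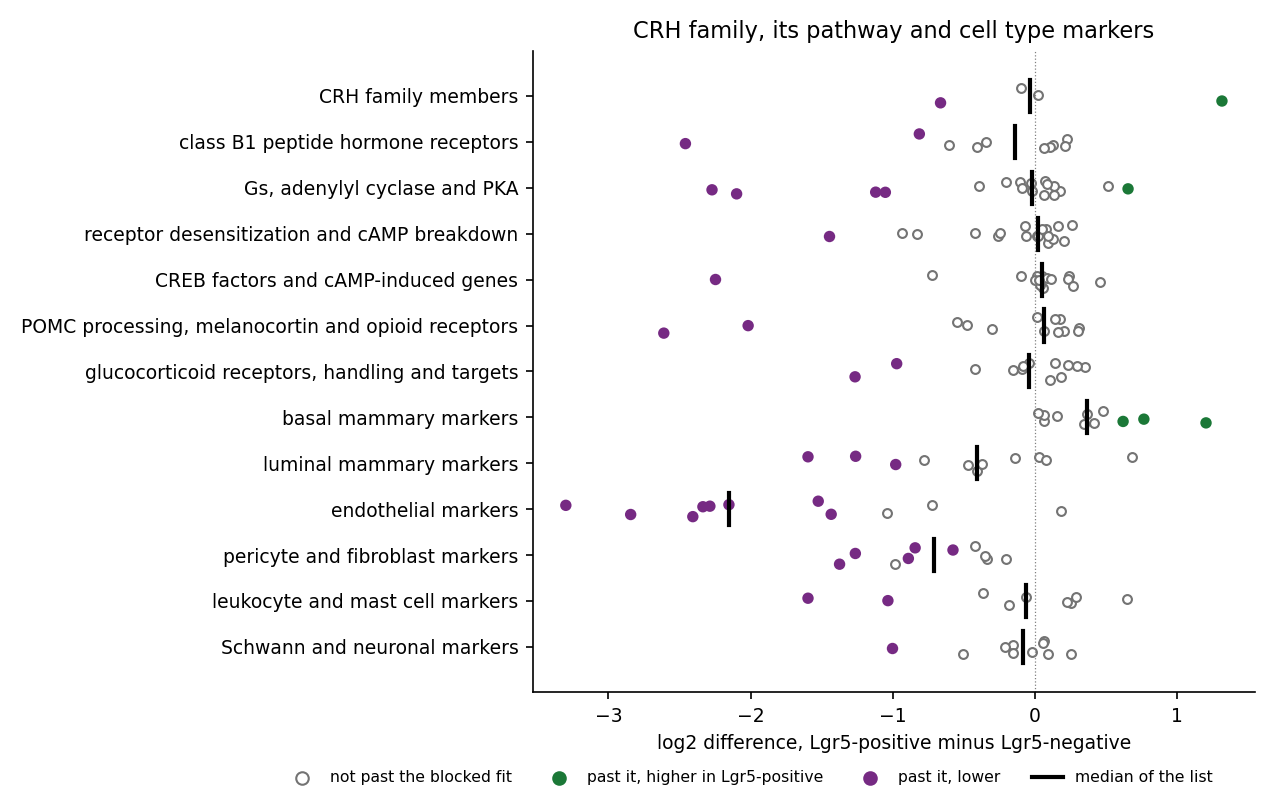
Difference between Lgr5-positive and Lgr5-negative cells in log2 units for every tested gene of the CRH family, of 6 pathway lists and of 6 cell type lists, 1 point per gene; filled points have a limma adjusted p under 0.05 with the replicate block and bars are list medians. Pathway medians lie between -0.14 and 0.06 with a few genes far to the left, and the endothelial median lies at -2.15.

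Markers of other cells moved between the same arrays. With the group alone 3 of 11 endothelial markers passed as lower in Lgr5-positive cells by limma, beside 0.587% of all genes. With the block 8 of the 11 did, beside 5.61% of all genes. The median of the 11 was -2.15, and 1 of them, Kdr, had a positive difference (0.18). Egfl7 differed by -3.30 (adjusted p = 0.029) and Plvap, the diaphragm protein of fenestrated vessels, by -2.41 (0.035, second probe -1.02), while Tie1, the third to pass, did not rise well above background on the Lgr5-positive arrays. Tie1 thus passed the filter through the Lgr5-negative arrays alone, and nothing is read from its call. Eng, a co-receptor for TGF-beta, passed with the block at -2.34. None of the 15680 genes passed without Lgr5-positive replicate 1 or 3 (1103 and 911 had an unadjusted p under 0.05). The part of endothelial RNA in the lower Crh, Pomc and pathway genes was not tested.

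Pericyte and fibroblast markers had a median of -0.71 over 10 tested genes, and 5 were lower with the block: Dcn by -1.37, Pi16 by -1.26, Notch3 by -0.89, Lum by -0.84 and Rgs5 by -0.58. Their mean log2 ratio was -0.55 to -0.23 in Lgr5-positive and 0.11 to 0.49 in Lgr5-negative cells. Basal markers had a median of 0.36. The oxytocin receptor Oxtr (0.77), Krt17 (0.62) and Cdh3 (1.20) were higher with the block, on the same side as Crhr1. Under median centring the basal median was -0.04, beside -0.29 over all genes. Luminal markers had a median of -0.41, with Foxa1 (-0.98), Esr1 (-1.26) and Kit (-1.60) lower with the block; the other Esr1 probes differed by -0.14 and -0.32. On the other side of 0 lay Gata3 (0.68), Krt8 (0.08) and Krt18 (0.03), and without Lgr5-negative replicate 2 the luminal median was -0.14. The part of these cell types in the members' values was not tested.

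Of 14 listed leukocyte and mast cell markers 13 had a named probe. Lyz2, Cd68, Cma1 and Fcer1a, which include the gene without a probe, were not seen well above background on any array. The 9 tested genes had a median of -0.07, with Cd74 (-1.04) and again Kit lower with the block. On the other side of 0 lay 4 of the 9: Tpsb2 (0.65), Ptprc (0.29), Itgam (0.26) and Cd3e (0.23). The mean log2 ratio of the 9 genes was 0.12 to 0.74 in Lgr5-positive and 0.31 to 1.102 in Lgr5-negative cells. Schwann and neuronal markers, of interest for neuropeptides, had a median of -0.09 over 10 tested genes and a mean of -0.17 to 0.22 against 0.02 to 0.44. Syt1, a synaptic vesicle protein gene, differed by -0.51 and did not pass with the block. No array showed Uchl1 well above background.

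The genes whose log2 ratios ran most like those of the bright Crhr1 probe over the 6 arrays were picked by Pearson's correlation, as a description that the difference between the groups dominates. They were Mmp2, a gelatinase (r = 0.993), Epop (0.991), the shared RNA polymerase subunit gene Polr2l (0.990), the ciliary transport gene Ift81 (0.988), the tetraspanin gene Tspan8 (0.982) and the procollagen peptidase gene Adamts2 (0.981). Once each group's mean was removed, r was 0.97 for Mmp2 and Epop and 0.61 for Adamts2. Their differences ranged from 0.41 for Polr2l to 3.46 for Tspan8, so Crhr1 at 1.31 lay within that range. In all, 30 of the 15680 genes had an r of at least 0.95, and the arrays behind these values share 1 slide and 1 reference.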

How the data were processed

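Total RNA of 6 sorted samples was hybridised to Agilent 2-colour arrays on 1 slide. The authors deposited scanner files from Feature Extraction 11.0 (submitters' processing notes; 11.0.1.1 per the file headers) with the intensity of each spot and background as pixel medians and a log10 ratio of Cy5 over Cy3, and a table of log2 ratios for the series.

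Signals were corrected by normexp (offset 50) and then by within-array loess in limma 3.58.1 (R 4.3.3); control and outlier spots were left out. Probes were named through RefSeq transcripts (GRCm38.p6, names alone, as the arrays use mm9). A gene is its brightest probe among those well above background in Cy5 on at least 3 of 6 arrays, 15680 genes in all. Groups were compared by lmFit and eBayes, two-sided, Benjamini-Hochberg adjusted over all genes; member intervals come from the same fit over probes. The members and lists were chosen with earlier results of these data known. From each list the text names tested members past the threshold, up to 4 by lowest p, with the group alone and with the block. Where none passed with the group alone, it names the 2 with the lowest p. Gnas, Prkaca, Nr3c1, Nr4a1 and Prkar1b were added after their values were seen. So were Fosb, Sgk1, Zbtb16, Per2, Dusp4, Gata3, Krt8, Krt18, Kdr, Ptprc, Itgam, Cd3e and Tpsb2, to show other members of their lists. One gene that the rule names is not reported here. Adrbk1 and Adrbk2 were read as Grk2 and Grk3.

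Same-numbered arrays deviated together from their group means (r = 0.81, 0.819 and 0.675 over genes), and the blocked fit treats them as pairs. The labels do not say what the number marks, and same-numbered arrays also lay side by side on the slide. A shared origin and a shared slide position cannot be told apart here. In each pair the Lgr5-positive array sat in the slide column before the Lgr5-negative one, so group and slide position cannot be told apart there. Alternatives changed background, normalization, filter, probe choice, block and arrays; the fits were tested on simulated data. No probe was saturated, and 3 arrays per group limit the precision.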

Additional observations from a re-analysis of the deposited data

How the results depend on the processing

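With the group alone 96 genes passed between the groups by limma. The count was 9 under median centring, 44 with the filter on all 6 arrays, 312 with array weights, 55 with trend and robust moderation and 1210 with the replicate block. Leaving out 1 array gave 0 to 371: 0 without Lgr5-positive replicate 1 or 3, 371 without Lgr5-negative replicate 1, 5 without its replicate 2 and 21 without its replicate 3. Without pair 2 or pair 3 it was 0 (770 and 667 at an unadjusted p under 0.05). The blocked fit without pair 1, 2 or 3, chosen after seeing the data, gave 1398, 326 and 854. The block changed the calls of the pathway and marker genes given with it; against the reference, Crhr2 lost its call with same-numbered arrays averaged. The Crhr1 difference was 0.81 under median centring and 0.14 by its second probe alone, and no result of these tables changed direction past its threshold. Over 22 settings Pomc ranged from -1.51 to -0.58, Crh from -1.81 to -0.37 and Ucn2 from -0.63 to -0.02, without a change of sign. Crhr2, Crhbp, Ucn, Ucn3 and the second Crhr1 probe (-0.14 to 0.26) changed sign in some. Genes past the threshold against the reference numbered 10237, and 7526 with same-numbered arrays averaged. The slide as a block was not run, since all arrays share 1 slide. Signal near background limits Crh, Crhbp, Ucn, Ucn2 and the second Crhr1 probe.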
